A study of Danio rerio with 9 samples.

Results

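161 genes had lower transcript levels in *bmp*-overexpressing embryos than in uninjected embryos while their levels in *chordin*-overexpressing embryos stayed close to the uninjected level. They were taken from 41977 gene rows, of which 28260 held a read in some library and 10344 reached a mean of at least 5 CPM (a gene's counts scaled to a library sum of 1000000) in uninjected embryos. The genes were chosen by their measured values in these same 9 libraries. A gene had to have a *bmp*-overexpressing mean of at most 0.6 times the uninjected mean, all 3 *bmp*-overexpressing libraries below all 3 uninjected libraries, and a *chordin*-overexpressing mean between 0.8 and 1.25 times the uninjected mean. Both contrasts with uninjected embryos, and the contrast between the injected groups that follows from them, are therefore given as descriptions. Counts of genes called by a model over all genes are given further on to show how many members are individually resolved, and they support nothing about the group.

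The embryos were wild type TE zebrafish, with 10 whole embryos pooled in each sample. Collection was timed by the uninjected siblings, at shield stage, about 6.75 hpf (hours post-fertilization). The stage that the injected embryos had themselves reached is not given. *bmp*-overexpressing embryos had received 10 pg of *bmp2b* mRNA at the one-cell stage, *chordin*-overexpressing embryos 100 pg of *chordin* mRNA, and the third group was not injected. Each group had 3 samples, and nothing in the labels says that these came from separate clutches, so the spread between them may be partly technical. Embryos with raised and with inhibited BMP signaling were each compared with uninjected embryos to find genes that respond to BMP. The samples include no group injected with a control mRNA, so within a single comparison the injection and the mRNA cannot be told apart.

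BMP ligands are secreted signals that bind serine/threonine kinase receptors and lead to phosphorylation of Smad1/5/9, which enters the nucleus and regulates transcription. In the zebrafish gastrula BMP signaling is highest ventrally, where it promotes epidermis and ventral mesoderm and restrains neural and dorsal mesodermal fates. Chordin, made by the dorsal organizer, binds BMP outside the cell and blocks it, and classic organizer and neural genes are known to be repressed by excess BMP and expanded by excess Chordin. Whole embryos were measured, so fewer cells of a type and less RNA per cell cannot be told apart in any value below.

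The libraries held between 8861308 and 22372856 counts, and the shallowest was a *chordin*-overexpressing one. The injected transcripts fitted the labels. *bmp2b* had 895, 864 and 711 CPM in *bmp*-overexpressing libraries against 106, 103 and 119 CPM in uninjected libraries. *chd* had 1689, 1642 and 2265 CPM in *chordin*-overexpressing libraries against 193, 225 and 221 CPM in uninjected libraries. Genes marking gastrula tissues were present in uninjected libraries. *ta* of the margin and axial mesoderm had 712 to 718 CPM and *sox3* of the neurectoderm 476 to 606 CPM. *krt4* of the outer epithelium had 2067 to 3115 CPM.

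379 of the 10344 rows met the *bmp* criteria (3.66%). The 161 genes described here are those within the *chordin* window, while 70 had a *chordin* ratio above it and 148 had one below it. The window is wide relative to the data, since 7623 of the 10344 rows (73.7%) lay in it. The *bmp* ratio of the 161 genes (*bmp*-overexpressing mean over uninjected mean) ran from 0.0551 to 0.597 with a median of 0.514, whereas the median of all 10344 rows was 0.960. 9 genes had a ratio of at most 0.25, 20 lay above 0.25 and up to 0.4, 42 above 0.4 and up to 0.5, and 90 above 0.5. Most of the group was thus reduced to about 0.5 of the uninjected level, and a small tail was reduced much further. The *chordin* ratio ran from 0.801 to 1.23 with a median of 0.966, close to the 0.953 of all 10344 rows, and was above 1 for 65 genes and at most 1 for 96.

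**Figure D1:**
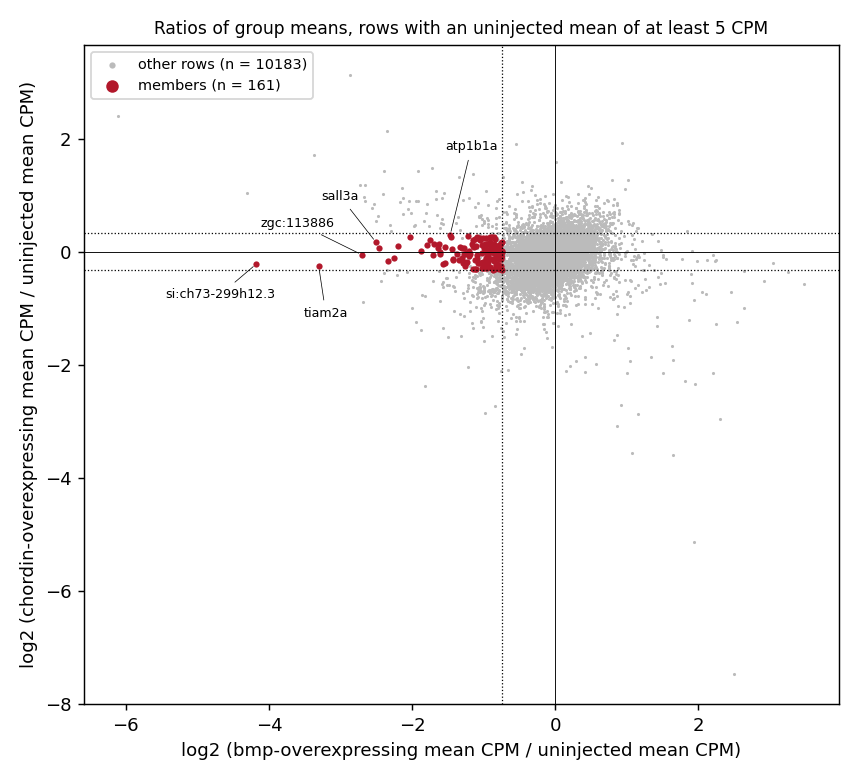
Each point is a gene row with an uninjected mean of at least 5 CPM, placed by the log2 ratio of group means for *bmp*-overexpressing (x axis) and *chordin*-overexpressing embryos (y axis) over uninjected embryos. Dotted lines mark the limits 0.6, 0.8 and 1.25 as log2 ratios, and the 161 members in red form a horizontal band left of the 0.6 limit, with *si:ch73-299h12.3* and *tiam2a* farthest out.

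Summed over the 161 genes, expression was 5995, 5990 and 6068 CPM in *bmp*-overexpressing libraries, 11689, 12375 and 12372 CPM in *chordin*-overexpressing libraries, and 11420, 11912 and 11591 CPM in uninjected libraries. The 3 *bmp*-overexpressing libraries were nearly equal to each other, and the *chordin*-overexpressing sums overlapped the uninjected ones. Each gene was also set against its own uninjected mean. The median over the genes was then 0.521, 0.507 and 0.480 in the *bmp*-overexpressing libraries, 0.920, 0.988 and 1.00 in the *chordin*-overexpressing libraries and 0.975, 1.01 and 1.00 in the uninjected libraries. The criteria required each *bmp*-overexpressing library to be low in each gene.

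**Figure D2:**
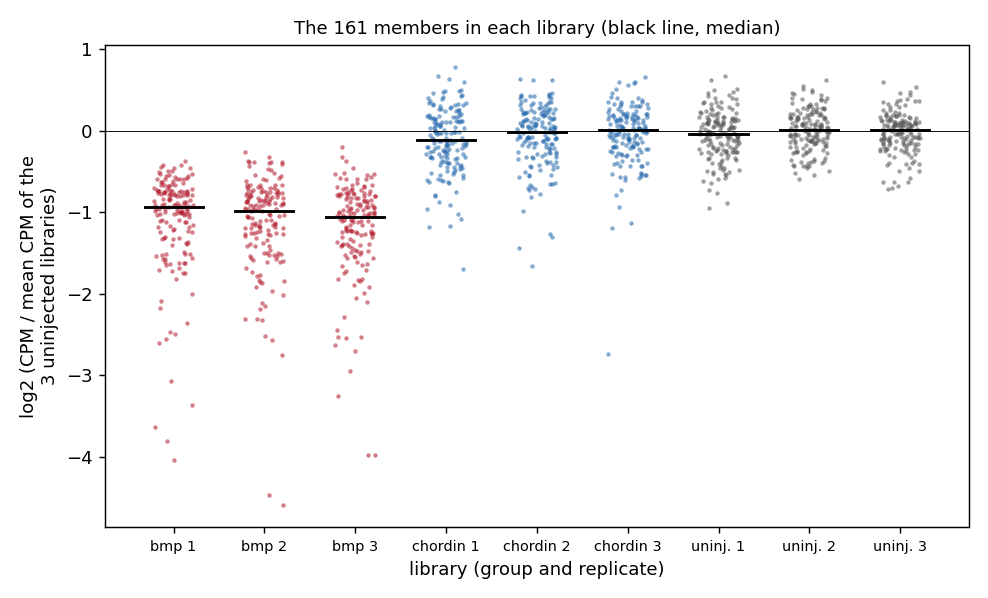
Each point is 1 of the 161 members in 1 library, shown as log2 of its CPM over its mean CPM in the 3 uninjected libraries, and black lines are medians. The 3 *bmp*-overexpressing libraries center near a ratio of 0.5 with a tail of much lower values, and the *chordin*-overexpressing and uninjected libraries center near 1.

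The gene farthest below its uninjected level was *si:ch73-299h12.3*. It carries only a clone identifier in the deposited data, and a later RefSeq annotation names it *bif1.2*. It lies on chromosome 21 from 2243193 to 2248045 (GRCz10, as are all positions given). It had 1.37, 0.933 and 1.44 CPM in *bmp*-overexpressing libraries, 14.8, 13.2 and 29.98 CPM in *chordin*-overexpressing libraries and 14.98, 29.8 and 23.1 CPM in uninjected libraries. The *bmp*-overexpressing values were tightly grouped, while the other 6 libraries spread over more than 2-fold and overlapped. Next was *tiam2a*, which encodes a guanine nucleotide exchange factor for the small GTPase Rac (chromosome 17, 48999006 to 49135390). It had 0.865, 0.3999 and 1.44 CPM in *bmp*-overexpressing libraries, 7.76, 5.53 and 8.95 CPM in *chordin*-overexpressing and 9.92, 7.73 and 9.03 CPM in uninjected libraries. Its *bmp*-overexpressing values rest on 12, 6 and 18 counts.

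*zgc:113886* and *LOC100331064*, both without a descriptive name, were reduced to ratios of 0.154 and 0.182. *zgc:113886* had 9.80, 10.1 and 7.74 CPM in *bmp*-overexpressing libraries, 50.9, 62.1 and 59.6 CPM in *chordin*-overexpressing and 55.7, 71.6 and 52.2 CPM in uninjected libraries. *LOC100331064* had 2.60, 3.07 and 2.63 CPM in *bmp*-overexpressing libraries, 14.2, 20.5 and 12.8 CPM in *chordin*-overexpressing and 14.4, 18.5 and 12.7 CPM in uninjected libraries. These genes are neighbors on chromosome 17 among rows at 5 CPM or more. In both, the *chordin*-overexpressing libraries overlapped the uninjected ones and stood far above all *bmp*-overexpressing ones.

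Among the 12 lowest ratios were the transcription factor genes *sall3a* and *blf*, and *spry4*, whose values are given with the FGF genes. *sall3a*, a Spalt-family zinc finger transcription factor, had 3.03, 2.13 and 1.28 CPM in *bmp*-overexpressing libraries, 13.8, 13.4 and 13.9 CPM in *chordin*-overexpressing and 13.5, 10.8 and 12.33 CPM in uninjected libraries. The *chordin*-overexpressing libraries were unusually even, and 2 of them exceeded every uninjected library. *blf* encodes the zinc finger protein Bloody fingers, known in zebrafish from gastrulation movements and blood formation. It had 27.0, 20.7 and 39.4 CPM in *bmp*-overexpressing libraries, 114, 115 and 155 CPM in *chordin*-overexpressing and 139, 148 and 129 CPM in uninjected libraries, so even its highest *bmp*-overexpressing library was far below the other 6.

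*alpl*, tissue-nonspecific alkaline phosphatase, had 19.4, 19.2 and 11.8 CPM in *bmp*-overexpressing libraries, 79.3, 80.3 and 87.5 CPM in *chordin*-overexpressing and 74.8, 61.2 and 69.9 CPM in uninjected libraries. It is 1 of 3 members whose *chordin*-overexpressing libraries all lay above the uninjected ones. *ece1*, the endothelin converting enzyme, had 8.29, 6.53 and 5.42 CPM in *bmp*-overexpressing libraries, 19.9, 20.99 and 35.2 CPM in *chordin*-overexpressing and 16.5, 31.6 and 21.8 CPM in uninjected libraries. The last 3 of the 12 were *LOC799968*, *cmtm7* (a MARVEL-domain membrane protein) and *exoc3l1* (an exocyst subunit-like protein), with ratios of 0.198, 0.218 and 0.273. *exoc3l1* rests on 6, 37 and 19 counts in *bmp*-overexpressing libraries. It was not called lower by the model described further on (limma adjusted p 0.145).

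**Figure D3:**
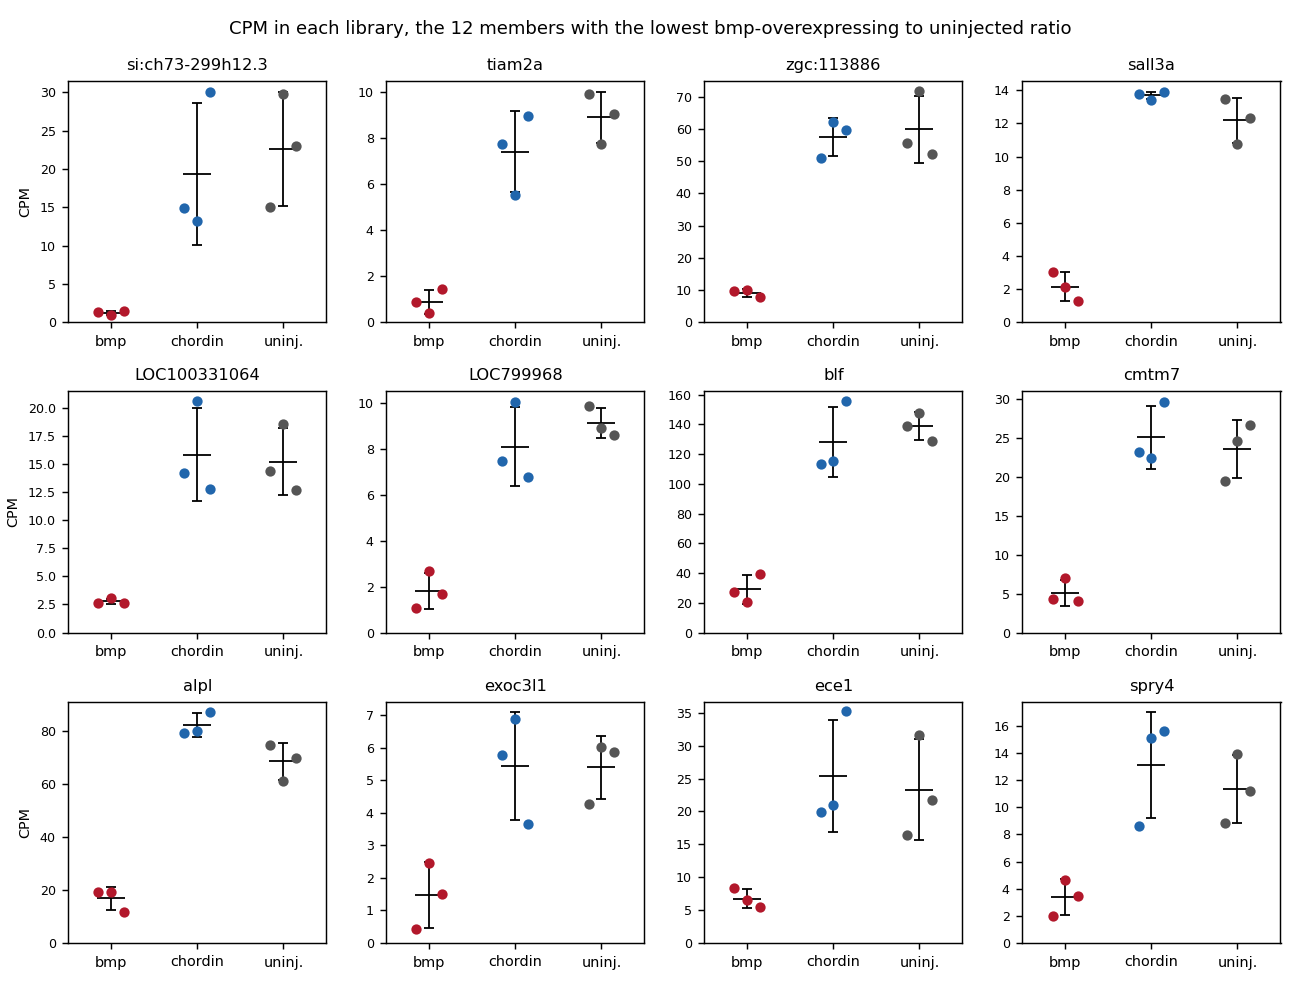
CPM (y axes, each from 0) of the 12 members with the lowest *bmp* ratio in *bmp*-overexpressing (red), *chordin*-overexpressing (blue) and uninjected (gray) libraries. Points are libraries and the horizontal marks with bars are the mean ± SD of 3 libraries, and in every panel the 3 red points lie below all 6 others.

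Classed by what their names say, 20 of the 161 genes encode transcription or chromatin regulators, 25 signaling proteins, 26 proteins of adhesion, cytoskeleton or membrane traffic, 31 transporters or metabolic enzymes, and 13 proteins of RNA processing, ribosomes or chromosomes. A further 7 have other names, and 39 carry only a clone, locus or cDNA identifier in the deposited data. A later RefSeq annotation names some of the 39, for example *si:ch73-299h12.3* as *bif1.2* and *LOC101884120* as *adamts17*, and the classes do not use those names. These classes, and the genes named in them beyond those picked by rule, were chosen after their values were seen. The median *bmp* ratio differed little between the classes, from 0.460 for the 7 other named genes to 0.551 for RNA processing, ribosomes and chromosomes. The rule held every ratio to at most 0.6, so nothing is read from this similarity.

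The 20 regulators of transcription included zinc finger repressors known from epithelial-mesenchymal transition. *snai2*, the Snail-family repressor known from neural crest, had 26.2, 18.5 and 34.0 CPM in *bmp*-overexpressing libraries, 90.9, 67.1 and 98.3 CPM in *chordin*-overexpressing and 94.8, 85.1 and 65.5 CPM in uninjected libraries. *zeb1a*, an E-box binding repressor of the same process, had 19.9, 22.3 and 23.8 CPM in *bmp*-overexpressing libraries, 53.1, 48.2 and 66.7 CPM in *chordin*-overexpressing and 40.1, 49.8 and 50.4 CPM in uninjected libraries. For both, the *chordin*-overexpressing and uninjected ranges overlapped.

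*sebox*, a homeobox gene of the mesendoderm, had 21.3, 17.4 and 22.7 CPM in *bmp*-overexpressing libraries, 46.2, 45.4 and 66.6 CPM in *chordin*-overexpressing and 37.4, 59.4 and 54.7 CPM in uninjected libraries. *zic2b*, a Zic-family factor of the neurectoderm, had 365, 322 and 353 CPM in *bmp*-overexpressing libraries, 554, 576 and 599 CPM in *chordin*-overexpressing and 548, 644 and 630 CPM in uninjected libraries. It was among the more moderate reductions, with a ratio of 0.570. *tcf7l1b*, an HMG-box repressor of Wnt target genes, had 31.9, 27.7 and 34.0 CPM in *bmp*-overexpressing libraries, 52.1, 59.4 and 60.4 CPM in *chordin*-overexpressing and 48.4, 63.2 and 50.3 CPM in uninjected libraries. Also in this class were the ETS-family factor *ets2* (ratio 0.551), *irf2a* of the interferon regulatory factors (0.504) and the Nlz-family repressor *znf703* (0.524). So were *prdm14* (0.563), the onecut homeobox gene *onecutl* (0.327) and the Notch coactivator *maml3* (0.583). *maml3* was not called lower by the model described further on (limma adjusted p 0.070).

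**Figure D4:**
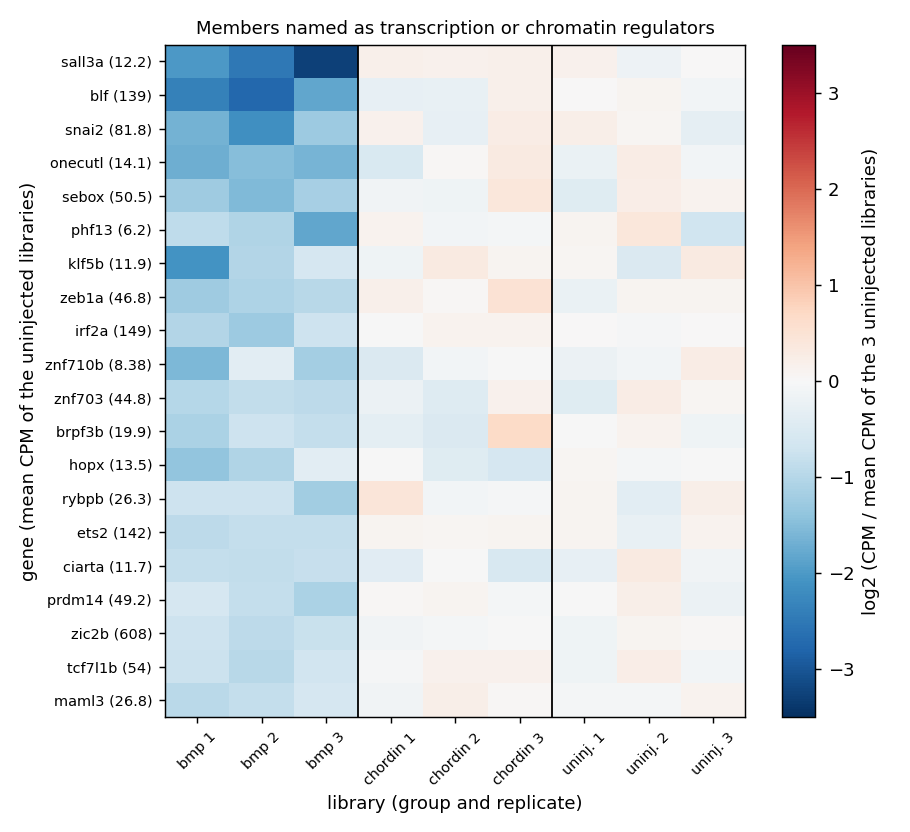
Rows are the 20 members named as transcription or chromatin regulators, ordered by *bmp* ratio and labeled with their uninjected mean CPM, and columns are the 9 libraries. Color gives log2 of CPM over the uninjected mean, and the 3 *bmp*-overexpressing columns on the left are blue throughout while the 6 others vary around 0.

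The 25 signaling genes included 3 from a list of 26 FGF ligands, receptors and feedback targets. *spry4* and *spry1* encode Sprouty proteins, feedback inhibitors that FGF signaling itself induces, and *fgfr1a* encodes an FGF receptor. *spry4* had 2.02, 4.67 and 3.43 CPM in *bmp*-overexpressing libraries, 8.60, 15.1 and 15.7 CPM in *chordin*-overexpressing and 8.87, 13.9 and 11.2 CPM in uninjected libraries. *spry1* had 8.07, 9.20 and 8.30 CPM in *bmp*-overexpressing libraries, 14.4, 23.6 and 18.5 CPM in *chordin*-overexpressing and 16.03, 17.7 and 18.1 CPM in uninjected libraries. *fgfr1a* had 26.4, 17.2 and 19.4 CPM in *bmp*-overexpressing libraries, 40.0, 43.1 and 47.1 CPM in *chordin*-overexpressing and 36.2, 47.8 and 65.3 CPM in uninjected libraries. All 3 showed overlapping *chordin*-overexpressing and uninjected values.

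Values varied across the FGF list. Of its 20 genes at 5 CPM or more, 5 had a *bmp* ratio of at most 0.6. The share of all 10344 rows at that ratio alone was not counted, so nothing is read from this. The list's median ratio was 0.833 with *bmp* and 1.123 with *chordin* against 0.960 and 0.953 for all 10344 rows. *spry2*, the Sprouty gene outside the group, had 54.4, 49.3 and 48.9 CPM in *bmp*-overexpressing libraries, 56.0, 82.3 and 91.1 CPM in *chordin*-overexpressing and 67.2, 93.2 and 90.6 CPM in uninjected libraries, and missed the limit with a ratio of 0.608. The ERK phosphatase *dusp6* (0.973) and the ETS factors *etv4* (0.793), *etv5a* (1.199) and *etv5b* (0.870), all known FGF targets, lay nearer to 1, and the ligand *fgf8a* was at 1.53. Tested with limma over all genes, 4 of the 23 list genes tested were lower with *bmp*, *spry4* and *fgfr1a* included, and 3 were higher, against 1.43% lower and 1.72% higher over all genes tested. The rule chose *spry4* and *fgfr1a* on this contrast, so their calls say nothing about the list. The member *spry1* was not called (limma adjusted p 0.051).

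On the list of 31 Wnt ligands, antagonists and targets, *tcf7l1b* was the only member. Its paralog *tcf7l1a* had nearly the same *bmp* ratio, 0.601, with 49.3, 46.7 and 39.6 CPM in *bmp*-overexpressing libraries, 87.2, 94.7 and 95.6 CPM in *chordin*-overexpressing and 76.2, 72.8 and 76.6 CPM in uninjected libraries. It lay just outside the *bmp* limit, and its *chordin* ratio of 1.23 was higher than the 1.06 of *tcf7l1b*. The Wnt receptor gene *fzd9b* was also in the group and was not on the list, and limma did not call it lower with *bmp* (adjusted p 0.096). It had 15.3, 14.1 and 14.4 CPM in *bmp*-overexpressing libraries, 16.2, 20.1 and 22.4 CPM in *chordin*-overexpressing and 25.3, 25.4 and 22.5 CPM in uninjected libraries, and its *chordin*-overexpressing libraries all lay below the uninjected ones. Of the 23 list genes at 5 CPM or more, 6 had a *bmp* ratio of at most 0.6, and 4 of these (*fzd8a*, *fzd8b*, *frzb* and *sfrp1a*) had *chordin* ratios of 1.39 to 2.70. Here too the share of all rows at that *bmp* ratio alone was not counted. With limma, 7 of 28 tested were lower with *bmp*, *tcf7l1b* included, and 3 were higher, beside the same 1.43% and 1.72% over all genes. The rule chose *tcf7l1b* on this contrast, so its call says nothing about the list.

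**Figure D5:**
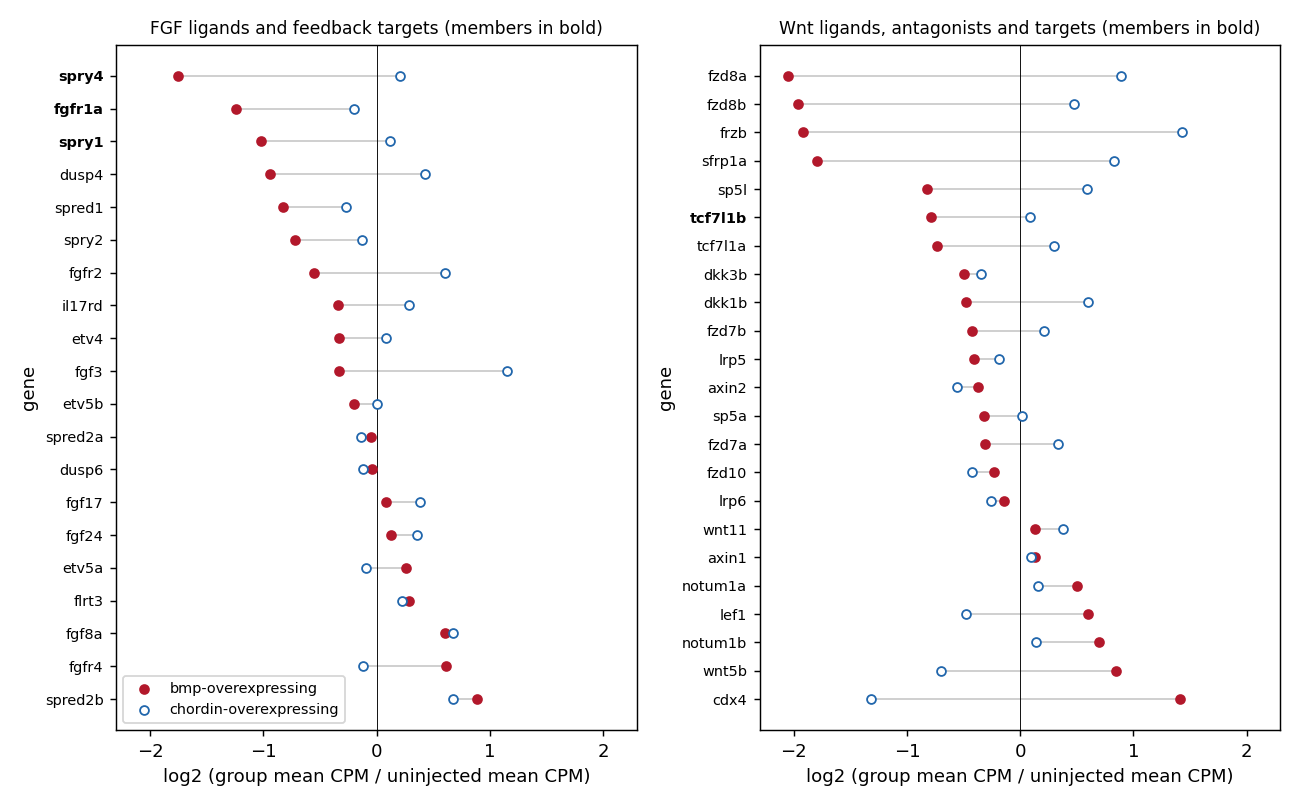
Log2 ratio of group mean CPM over uninjected mean CPM (x axis) for the 20 FGF list genes and 23 Wnt list genes at 5 CPM or more, with *bmp*-overexpressing as filled red and *chordin*-overexpressing as open blue points. The 4 members, in bold, pair a reduced red point with a blue point near 0, whereas *fzd8a*, *frzb* and *sfrp1a* have blue points clearly above 0.

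Other members of the signaling class act between cells, at their surface or inside them. *sostdc1a* encodes a secreted antagonist of BMP and Wnt, and had 5.70, 13.9 and 11.3 CPM in *bmp*-overexpressing libraries, 31.1, 22.9 and 28.2 CPM in *chordin*-overexpressing and 16.8, 31.9 and 28.7 CPM in uninjected libraries. The guidance receptor *robo3* (ratio 0.533) and the class 4 semaphorins *sema4gb* (0.459) and *sema4bb* (0.552) belong here. So do the planar polarity gene *prickle1a* (0.569), the mechanosensitive channel *piezo1* (0.465) and the cyclooxygenase *ptgs2a* (0.560). *sema4gb*, *prickle1a*, *piezo1* and *ptgs2a* were not called lower by the model described further on (limma adjusted p 0.069, 0.065, 0.065 and 0.055). *cdc42ep4b*, an effector of the small GTPase Cdc42, had 9.80, 8.46 and 6.78 CPM in *bmp*-overexpressing libraries, 20.6, 28.1 and 28.8 CPM in *chordin*-overexpressing and 20.6, 28.8 and 23.6 CPM in uninjected libraries. *asb11* encodes a substrate adaptor of a ubiquitin ligase, known in zebrafish for promoting Notch signaling and neural progenitor expansion. It had 259, 228 and 312 CPM in *bmp*-overexpressing libraries, 618, 502 and 589 CPM in *chordin*-overexpressing and 475, 521 and 559 CPM in uninjected libraries, the highest CPM of this class.

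17 members had an uninjected mean of at least 100 CPM. The beta subunit of the sodium-potassium ATPase, *atp1b1a*, had 213, 175 and 183 CPM in *bmp*-overexpressing libraries, 669, 617 and 652 CPM in *chordin*-overexpressing and 545, 534 and 501 CPM in uninjected libraries. The glutamine synthetase gene *glulb* had 518, 459 and 528 CPM in *bmp*-overexpressing libraries, 959, 1039 and 1025 CPM in *chordin*-overexpressing and 1004, 1063 and 1003 CPM in uninjected libraries. *atp1b1a* had all its *chordin*-overexpressing libraries above the uninjected ones, while those of *glulb* overlapped them.

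The RNA helicase gene *ddx5* held the most reads of the group. It had 1530, 1621 and 1548 CPM in *bmp*-overexpressing libraries, 2710, 3169 and 2936 CPM in *chordin*-overexpressing and 2619, 2727 and 2594 CPM in uninjected libraries. Its reduction was small, at a ratio of 0.592, but the libraries of each group lay close together. *ncapd2*, a condensin subunit, and *sult6b1*, a sulfotransferase, had ratios of 0.556 and 0.583. Per length, in the authors' pooled FPKM (fragments scaled to transcript length and library size) for uninjected embryos, *ddx5* was at 827 and *glulb*, second by reads, at 148. The members' median was 7.23 FPKM against 11.9 for the 10344 rows.

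Among metabolic members of lower abundance, the transferrin gene *tfa* had 26.7, 20.99 and 19.8 CPM in *bmp*-overexpressing libraries, 67.4, 47.7 and 50.8 CPM in *chordin*-overexpressing and 58.7, 39.3 and 53.1 CPM in uninjected libraries. The amino acid transporter *slc38a5b* (ratio 0.541) and the purine nucleoside phosphorylase *pnp4a* (0.563) were similar in form. In the class of adhesion, cytoskeleton and traffic, the neuron navigator *nav2b* had 31.4, 27.5 and 26.8 CPM in *bmp*-overexpressing libraries, 77.3, 86.2 and 118 CPM in *chordin*-overexpressing and 79.7, 75.2 and 81.0 CPM in uninjected libraries. *amotl2a*, an angiomotin-like protein of cell junctions and the Hippo pathway, had 18.3, 26.5 and 28.2 CPM in *bmp*-overexpressing libraries, 44.7, 68.0 and 59.4 CPM in *chordin*-overexpressing and 60.2, 59.4 and 57.0 CPM in uninjected libraries. The neuronal splicing regulator *nova1*, of the RNA class, had 43.8, 53.3 and 51.8 CPM in *bmp*-overexpressing libraries, 102, 93.6 and 114 CPM in *chordin*-overexpressing and 83.3, 112 and 99.8 CPM in uninjected libraries. Each of these had *bmp*-overexpressing libraries well apart from the 6 others, which overlapped.

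Members made up 1.56% of the 10344 rows, and lists of genes used to follow dorsal-ventral patterning held 1 member or none. Of 23 neural genes at 5 CPM or more, *zic2b* was the only member, although 11 had a *bmp* ratio of at most 0.6. The list's median *chordin* ratio was 1.45. Of 23 organizer and axial mesendoderm genes, *sebox* was the only member, 11 had a *bmp* ratio of at most 0.6, and the median *chordin* ratio was 1.84. For both lists, the share of all 10344 rows at that *bmp* ratio alone was not counted, so nothing is read from the counts of 11. *sebox* was also the only member among 8 endoderm genes. With *chordin*, limma called 12 of 38 neural genes tested higher and 3 lower, and 12 of 29 organizer genes higher, against 0.591% higher and 0.301% lower over all genes tested. The organizer list includes *chd*, and in *chordin*-overexpressing embryos injected and endogenous *chd* transcripts cannot be told apart. The list's median *chordin* ratio and its calls were not recomputed without *chd*. Neither *zic2b* nor *sebox* was among the genes called, but the rule had required both to be level with *chordin*, so nothing is read from this. Lists of T-box and margin mesoderm, BMP pathway, epidermal ectoderm, germ plasm, and pluripotency and maternal genes (21, 30, 24, 15 and 16 genes at 5 CPM or more) held no member. The lists are not complete. The BMP antagonist gene *sostdc1a*, a member, was not on the BMP pathway list, and the members *tdrd1* and *prdm14* were on no list. With members at 1.56% of the rows, nothing is read from an empty list of this size.

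Lists for other tissues and for stress held 1 or 2 members each or none. 2 of 27 genes of the enveloping layer and yolk syncytial layer were members. The annexin gene *anxa1b* had 9.59, 15.7 and 10.5 CPM in *bmp*-overexpressing libraries, 24.1, 34.6 and 28.8 CPM in *chordin*-overexpressing and 25.04, 26.6 and 44.6 CPM in uninjected libraries, and the apolipoprotein gene *apobb.1* had a ratio of 0.483. The list summed to 13904 to 14753 CPM with *bmp*, 14862 to 15984 CPM with *chordin* and 13708 to 17232 CPM in uninjected libraries. These ranges overlapped. The list's median *bmp* ratio was 0.836 against 0.960 for all 10344 rows. Of its 28 genes tested, limma called 3 lower with *bmp* than in uninjected embryos, with *anxa1b* and *apobb.1* among them, and 11 lower and 1 higher with *bmp* than with *chordin*, where 2.85% and 2.19% of all genes were called. The rule chose *anxa1b* and *apobb.1* on the contrast with uninjected embryos, so their calls add nothing to it. Both are also among the 11 lower with *bmp* than with *chordin*. The rule fixed that contrast in part for members, so nothing is read from their calls there either. The part of the enveloping layer and the yolk syncytial layer in the members' values was not tested. Of 20 genes of the p53 and injection stress response, *cdkn1a* (the cell cycle inhibitor p21) was the only member, and its 3.89, 5.33 and 2.47 CPM in *bmp*-overexpressing libraries, 7.46, 5.53 and 7.68 CPM in *chordin*-overexpressing libraries and 6.57, 5.36 and 8.96 CPM in uninjected libraries nearly met between the groups. That list summed to 3064 to 3203, 3134 to 3211 and 3010 to 3351 CPM in the *bmp*-overexpressing, *chordin*-overexpressing and uninjected libraries, and limma called 0 of its 21 tested genes in either contrast with uninjected embryos. At an unadjusted p of 0.05, 2 were lower and 2 higher with *bmp*, and 3 were lower and 2 higher with *chordin*. Between the injected groups, limma called 2 of the 21 lower and 0 higher with *bmp* than with *chordin*. In that contrast 5 were lower and 3 higher at an unadjusted p of 0.05. The share of all genes at an unadjusted p of 0.05 was not computed, so nothing is read from these unadjusted counts. *prickle1a* was the only member among 32 genes of planar polarity and adhesion.

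Being level with *chordin* was defined on means, and single libraries showed how firm it was. In 3 genes, *alpl*, *atp1b1a* and *si:ch211-285f17.1*, all *chordin*-overexpressing libraries lay above all uninjected ones (5.54% of the 10344 rows did), in 3 (*piezo1*, *fkbp9* and *fzd9b*) all lay below (11.8%), and in 155 they overlapped. In 125 of the 161 genes all *bmp*-overexpressing libraries also lay below all *chordin*-overexpressing ones (11.0% of the rows). The criteria fixed most of these counts, so nothing is read from their distance to the percentages. In low-abundance genes the *chordin* level was loosely measured. Of the 86 genes with an uninjected mean under 20 CPM, 24 had *chordin*-overexpressing libraries more than 2-fold apart, against 5 of the 75 with a higher mean. An extreme case was *LOC101884120*, with 6.32, 5.42 and 0.751 CPM.

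Fitted with limma across all genes at a Benjamini-Hochberg adjusted p of 0.05, 71 of the 161 genes were called lower and 0 higher in *bmp*-overexpressing than in uninjected embryos, where 240 of 16779 genes tested (1.43%) were called lower. 147 members were lower at an unadjusted p of 0.05, and 0 were higher. The share of all genes at an unadjusted p of 0.05 was not computed. Nothing is therefore read from this or the other unadjusted counts in this paragraph. Among the members, 62 of the 75 genes at 20 CPM or more were called lower, and 9 of the 86 below. The share of all genes called in these ranges was not computed, so nothing more is read from this split. Between *chordin*-overexpressing and uninjected embryos, 0 members were called lower (0.301% of all genes tested), also at an unadjusted p of 0.05, and 1 was called higher (0.591%). That gene was *atp1b1a*, with a log2 fold change of 0.35, and 7 were higher at an unadjusted p of 0.05. limma called 85 members lower with *bmp* than with *chordin* (2.85% of all genes tested). The rule used these contrasts, so the counts say how many members are individually resolved at this depth and nothing more. The call of *atp1b1a* was lost without *chordin*-overexpressing replicate 3 or without uninjected replicate 3.

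Membership depended on the libraries for many genes. 48 of the 161 genes met the rule with each of the 9 libraries left out in turn, and all 48 also met it with both other scalings of the libraries. They include *zgc:113886*, *sall3a*, *LOC100331064*, *blf*, *snai2*, *sebox*, *sostdc1a*, *spry1*, *glulb*, *asb11*, *ncapd2* and *zic2b*, but not *si:ch73-299h12.3*, *tiam2a*, *alpl*, *spry4* or *atp1b1a*. Leaving out uninjected replicate 2 kept the fewest, 114, and leaving out *bmp*-overexpressing replicate 1 the most, 148.

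The thresholds cut through continuous distributions. Nearest inside the *bmp* limit were *fzd9b* (0.597), *zgc:113424* (0.597) and *grhpra* (0.596), and nearest outside were *rps6kb1a* (0.600124), *dlg5b.1* (0.601) and *tcf7l1a* (0.601). At the upper *chordin* limit, *atp1b1a* (1.23), *si:dkey-228b2.6* (1.21) and *alpl* (1.2005) lay inside and *mst1* (1.28), *sik1* (1.30) and *lhx5* (1.33) outside. *lhx5*, a homeobox gene of the forebrain, and *mst1* had *bmp* ratios of 0.327 and 0.204, and 16 and 6 of the members were at or below these. At the lower *chordin* limit, *fzd9b* (0.801), *hopx* (0.801) and *pkp3b* (0.804) lay inside and *morc3b* (0.799), *LOC101886482* (0.798) and *zcchc11* (0.797) outside. *morc3b* and *LOC101886482* had *bmp* ratios of 0.195 and 0.220. At the expression minimum, *LOC101884120* (5.03 CPM), *plcxd2* (5.03 CPM) and *lrrc7* (5.06 CPM) lay inside and *scn12ab* (4.94 CPM), *g6pca.1* (4.91 CPM) and *si:dkey-74k8.4* (4.83 CPM) outside. A further 49 rows met every ratio but had overlapping *bmp*-overexpressing and uninjected libraries.

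Position in the genome was not used by the rule. The members lay on all 25 chromosomes, with 1 unplaced. Among the 10344 rows, 10146 pairs were adjacent on a chromosome, and in 7 of these (0.0690%) both genes were members. The number of such pairs for genes placed at random was not computed, so nothing is read from this share. The lowest ratios were in the pair of *LOC100331064* (chromosome 17, 49934743 to 49936821) and *zgc:113886* (49959315 to 49971473), 22493 bases apart. Next came *ece1* (chromosome 11, 27673162 to 27705965, ratio 0.290) and *alpl* (27721602 to 27766233, ratio 0.245), 15636 bases apart, and then *exoc3l1* (chromosome 25, 14329436 to 14337625, ratio 0.273) and *nav2b* (14414416 to 14571885, ratio 0.363). The other pairs were *znf710b* and *sema4bb*, *robo3* and *si:ch211-266i6.3*, *tdrd1* and *si:ch211-225b10.3*, and *zgc:112332* and *tnfrsf11a*. Adjacent means consecutive among the 10344 rows, so a pair can lie far apart. *exoc3l1* and *nav2b* were 76790 bases apart, and *robo3* and *si:ch211-266i6.3* 487162 bases. The 305 adjacent rows that were not members had a median *bmp* ratio of 0.923, close to that of all rows. The members' gene loci had a median span of 17784 bases, against 18109 for the 10344 rows.

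149 of the 161 genes could be matched by name to the RefSeq annotation of GRCz12tu, a later assembly used for gene types only. 146 of them (98.0%) were protein coding and 3 (2.01%) were long noncoding RNA genes, *LOC108191294*, *si:dkey-188h10.3* and *si:dkey-65j4.2*. Of the 9721 matched rows among the 10344, 99.2% were protein coding and 0.679% long noncoding. The most abundant of the 3, *LOC108191294*, had 43.0, 42.7 and 52.3 CPM in *bmp*-overexpressing libraries, 124, 125 and 102 CPM in *chordin*-overexpressing and 93.4, 103 and 109 CPM in uninjected libraries, and its *chordin*-overexpressing and uninjected ranges overlapped.

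The reads carry no strand, so counts of overlapping genes cannot be fully told apart. 21 members overlapped another gene with counts, and 6 of them overlapped one with at least as many counts, *cmtm7*, *grhpra*, *inpp5b*, *LOC108179934*, *mfsd2aa* and *ssuh2rs1*. *cmtm7* held 2439 counts over all libraries and the gene it overlaps, *cmtm6*, 38420 counts at a *bmp* ratio of 1.02. *mfsd2aa* held 2138 counts and *mycla* 38974 counts at a *bmp* ratio of 0.866. The partners' ratios near 1 stand beside members' ratios of 0.218 and 0.590, and the share of reads exchanged between them was not tested.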

How the data were processed

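Poly(A) RNA of 9 samples was sequenced without strand information. According to the deposited processing notes the authors demultiplexed with bcl2fastq 2.17.1.14 and aligned reads with STAR 2.4.1b to GRCz10, and HTSeq is also named there. The authors deposited 3 tables, 1 for each pair of groups, which hold whole-number read counts per gene, not normalized and written with digit separators, and mean FPKM values computed by the authors with Cuffdiff 2.1.1. Their log2 fold changes, p-values and calls from Cuffdiff, DESeq 1.12.0 and edgeR 3.2.3 were not used.

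Separators were removed, the tables were joined by gene and locus, and shared columns were identical. CPM is count over library sum times 1000000. Because the count columns are recorded as text in the table of units, the count-model test was replaced by limma 3.58.1 in R 4.3.3, with voom (0.5 added to each count) and TMM factors that trim 30% of genes by fold change and 5% by level. Genes had to reach, in 3 libraries, the CPM that equals 10 counts at the median depth, and a sum of 15 counts. Each fit held the 6 libraries of its comparison and no block, and p-values were adjusted over all genes tested. The fit was also run on simulated counts with known fold changes, whose outcome is not given here, so nothing is read from it. With 3 libraries against 3, an exact two-sided permutation test of 1 gene cannot go below p = 0.1. Intervals of single counts are not given, and precision is set by the 3 libraries and, for low genes, by depth. Other work used Python 3.11.15, pandas 2.3.3 and matplotlib 3.10.9.

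The members and the 13 gene lists were chosen with earlier results of these data known. The genes named are the 12 lowest *bmp* ratios, the 8 highest uninjected means, all members on a list, members with every *chordin*-overexpressing library above the uninjected ones, and the 3 nearest each threshold on both sides; others were chosen after their values were seen. 1 gene that this rule names is not reported here. Alternatives were other scalings, thresholds and windows, no filter, a fit over all groups, a replicate block, limma-trend and each library left out in turn. Other experiments of the study were not analysed here, and no sequence is shown because a genome of this build was not used here.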

Additional observations from a re-analysis of the deposited data

How the results depend on the processing

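Membership was moderately stable to scaling: 152 genes met the rule with TMM-scaled libraries (139 of the 161), 150 with RLE size factors (134) and 147 without mitochondrially encoded genes (139). It followed the thresholds, with 258 genes at a minimum of 1 CPM, 71 at a *bmp* limit of 0.5 and 309 at 0.7, and 94 or 259 with a narrower or wider *chordin* window. Leaving out 1 library gave 149 to 232 genes, and with 2 libraries in a group non-overlap is easier to meet. The median log2 *bmp* ratio was −0.96, −0.88 with 1 CPM added to the means, and −1.001 to −0.955 with a library left out. The median log2 *chordin* ratio was −0.05, and its sign turned to a value within 0.01 of 0 under TMM and RLE scaling.

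Calls of members lower with *bmp* than in uninjected embryos ranged from 49 to 90 with a library left out, and members lower with *bmp* than with *chordin* from 67 to 85. For *chordin* against uninjected embryos the 1 call became 2 without the filter, with all groups in the fit and with a replicate block, and 0 with limma-trend or an adjusted p of 0.01, and it ranged from 0 to 2 with a library left out. Samples sharing a replicate number did not deviate together over all genes (correlations −0.02 to 0.06), so no pairing by number was seen. Weak pairing, or pairing in a part of the genes, was not tested. The replicate block gave 92 members lower with *bmp* than in uninjected embryos and 88 lower than with *chordin*. Depth limits the 86 genes under 20 CPM most.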
